A study of Homo sapiens with 6 samples.

Results

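The genes described here are 28 that build cholesterol or control its synthesis: the enzymes from acetyl-CoA to cholesterol, a sterol carrier, the sterol regulatory element binding proteins (SREBPs) with the proteins that hold or release them, and the fatty acid enzymes that SREBPs also drive. They were listed by name and matched to the Ensembl identifiers of the deposited tables, which gave 27 of 28 among 19493 genes with values, and ACACA was not matched. All 27 were above the filter on low levels. The study used HaCaT keratinocytes, an immortalised human skin line, engineered to express the photolyase of the marsupial Potorous tridactylus that repairs cyclobutane pyrimidine dimers (CPDs), so every group carried the enzyme. RNA was sequenced in 6 libraries, 2 for each of 3 groups. In the first, irradiated cells had an active photolyase: they received 15 J/m2 of UVC at 254 nm and also 2 h of white light, which drives the enzyme, with harvest 6 h after irradiation as in the next group. The second received the same UVC with the photolyase left inactive and was harvested 6 h later. The third, the control, received no UVC and its photolyase was inactive, and its harvest time is not given. White light was listed for the first group alone, so CPD repair and the light itself cannot be told apart, and the repair was not measured here. Whether both libraries of a group are separate cultures is not stated, and the p-values therefore speak only to the spread seen between libraries, which may be technical.

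Cholesterol is built from acetyl-CoA through mevalonate, isoprenoid diphosphates, squalene and lanosterol. When sterols are scarce in the endoplasmic reticulum, the escort protein SCAP carries SREBPs to the Golgi, where proteases release a fragment that enters the nucleus and activates genes of the pathway. When sterols are plentiful, the INSIG proteins hold SCAP and its cargo back. Keratinocytes make much of their own cholesterol, a main lipid of the skin barrier, and the last intermediate of one branch is also the precursor from which ultraviolet light makes vitamin D in skin.

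Levels are given as scaled cRPKM, the authors' corrected RPKM (reads over the length that reads can map to and over the library total) divided by the library's scaling factor, so that levels of different genes can be compared per length. Differences are log2 fold changes with their standard error (SE). A gene was called when its p from edgeR's quasi-likelihood test, adjusted by the Benjamini-Hochberg method over all 11926 genes tested, was under 0.05. The scaling takes most genes as unchanged, so each change is relative to the bulk of transcripts, and in these bulk libraries fewer cells and less RNA per cell cannot be told apart. Total counts ran from 57669389 to 70005705 per library. Mitochondrially encoded genes took 4.09 and 3.21% of counts with active photolyase, 5.13 and 5.28% after UVC and 3.32 and 3.92% in control. The 27 genes took 0.442 and 0.427% of all counts with active photolyase, 0.654 and 0.623% after UVC and 0.377 and 0.372% in control. SCD alone gave 43.9 and 42.8% of the counts of the 27 genes with active photolyase, 53.7 and 53.4% after UVC and 43.0 and 41.2% in control. All 10 keratinocyte markers were above the filter, with a summed level of 29960 and 29978 scaled cRPKM with active photolyase, 18347 and 17931 after UVC and 32309 and 31422 in control. Of the markers of other cells, 1 of 7 for melanocytes, 3 of 9 for fibroblasts and 4 of 11 for immune cells were above the filter. Their summed levels were 1.35 to 2.25 scaled cRPKM for melanocytes and 8.89 to 10.5 for fibroblasts over the 6 libraries. The immune sum was 189 and 199 with active photolyase, 182 and 183 after UVC and 146 and 133 in control, nearly all from CD68 and CD74, and TYR and MS4A1 had no count in any library. The part of these marker and mitochondrial shifts in the results was not tested.

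The pathway genes moved in both directions after UVC, as did genes in general. Of the 27 genes, 17 were higher after UVC than in control, 7 were lower and 3 were not called, so that 88.9% were called. Of all genes tested, 85.6% were called, 42.5% higher and 43.1% lower. The members' median log2 fold change was 0.35, against 0.00 over all genes. With active photolyase against UVC, 7 were higher and 15 lower (81.5% called), where 79.1% of all genes were called, 39.2% higher and 39.9% lower. Their median was -0.27, against -0.04 over all genes. With active photolyase against control, 10 were higher and 9 lower (70.4% called), where 65.8% of all genes were called, 33.0% higher and 32.9% lower. Their median was 0.04, against 0.01. The share called in the members thus lay near the share of all genes in each comparison. The comparisons share libraries and are not independent of each other.

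Fold changes were mostly moderate. After UVC against control, 4 members were called lower by at least 2-fold (HMGCS1, SQLE, INSIG1 and INSIG2), as were 18.6% of all genes, and 1 was higher by that much (HSD17B7), as were 9.89% of all genes. With active photolyase against UVC, 3 were higher by at least 2-fold (SQLE, INSIG1 and INSIG2), as were 14.0% of all genes, and 0 were lower, against 1.37% of all genes. With active photolyase against control, 0 members reached 2-fold in either direction, against 4.06% of all genes that were higher and 2.02% that were lower by that much. The libraries of UVC and control did not overlap in 25 of the 27 genes, against 92.6% of all genes. Active photolyase did not overlap UVC in 26 of the 27 (90.5% of all genes) and did not overlap control in 21 (82.0% of all genes). The libraries within a group were close, with a median difference between them of 2.13% over the members with active photolyase, 5.50% after UVC and 3.87% in control.

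The count of higher and lower members depended on the scaling. Scaled to library totals instead of by the trimmed mean, all genes moved by a median of 0.42 (UVC against control), -0.34 (active photolyase against UVC) and 0.12 (active photolyase against control) on the log2 scale. The members were then 21 higher and 6 lower, 5 higher and 20 lower, and 15 higher and 6 lower in those 3 comparisons. All genes were then 7095 higher and 3542 lower, 3318 higher and 6954 lower, and 5237 higher and 2840 lower, against 5074 and 5140, 4676 and 4755, and 3933 and 3919 with the main scaling. The 6 members lower after UVC under both scalings were HMGCS1, SQLE, CYP51A1, LBR, INSIG1 and INSIG2.

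**Figure D1:**
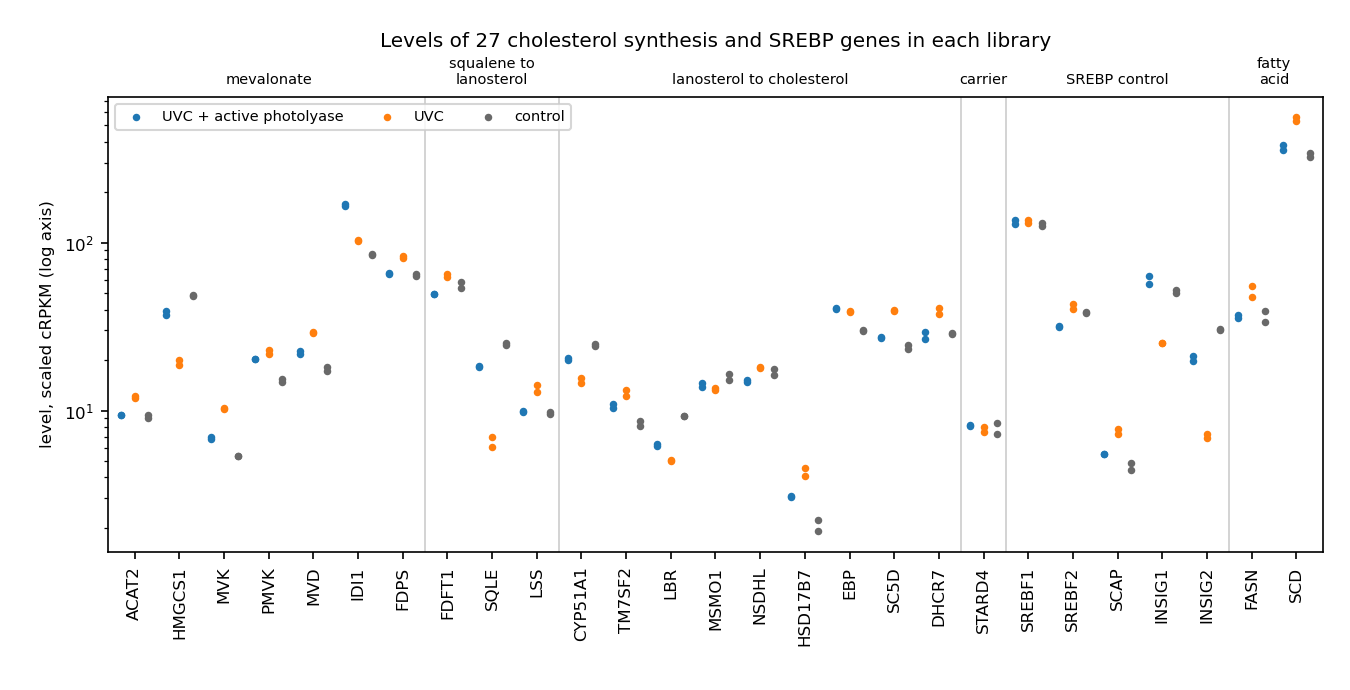
Level of each of the 27 genes in each of the 6 libraries, in scaled cRPKM on a log axis, ordered by role (2 points per group). SCD is the highest in every group, and INSIG2, SQLE and HMGCS1 show UVC libraries far below the other 2 groups.

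Transcripts of the proteins that retain SREBPs showed the widest changes of the regulators. INSIG2, an anchor of SCAP in the endoplasmic reticulum, had 21.3 and 19.7 with active photolyase, 6.83 and 7.30 after UVC and 30.1 and 30.4 in control (scaled cRPKM). Its UVC libraries were the lowest and those with active photolyase lay between UVC and control, with no overlap among the 3 groups. The fall after UVC was 4.28-fold against control (log2 fold change -2.10 ± 0.06 SE, adjusted p = 9.73e-13 by edgeR's quasi-likelihood test), the largest among the members. INSIG2 was higher with active photolyase than after UVC (1.53 ± 0.06, adjusted p = 3.6e-11) and lower than in control (-0.56 ± 0.06, adjusted p = 1.65e-06).

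INSIG1, the paralogue that is itself a well-known SREBP target, had 63.0 and 56.7 with active photolyase, 25.2 and 25.1 after UVC and 50.0 and 52.0 in control (scaled cRPKM). It fell 2.03-fold after UVC against control (-1.02 ± 0.06, adjusted p = 9.11e-10) but, unlike INSIG2, stood highest with active photolyase. INSIG1 was the single member with a call of lower after UVC and higher with active photolyase than in control (0.23 ± 0.06, adjusted p = 0.00247). That last call was lost without replicate 1 of active photolyase (0.15, adjusted p = 0.0518), the higher of its 2 libraries. The INSIG2 to INSIG1 ratio of cRPKM inside a library, which no scaling can alter, was 0.337 and 0.347 with active photolyase, 0.271 and 0.291 after UVC and 0.602 and 0.585 in control. It was thus lower in all 4 irradiated libraries than in both control libraries.

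The SREBP genes themselves moved little after UVC against control with the main scaling, and SREBF2 was lower with active photolyase. SREBF1, whose products mainly drive fatty acid synthesis, had 137 and 130.2 with active photolyase, 136 and 130.5 after UVC and 126 and 131 in control (scaled cRPKM), and it was among the 3 highest members in level in each group. Its groups overlapped, and it was not called in any of the 3 comparisons (0.05 ± 0.05 for UVC against control, 0.00 ± 0.05 for active photolyase against UVC and 0.06 ± 0.05 for active photolyase against control). With library totals it was called in each of them, at 0.47, -0.30 and 0.17, so its direction rests on the scaling. SREBF2, whose product mainly drives cholesterol synthesis, had 31.8 and 31.4 with active photolyase, 43.0 and 40.2 after UVC and 38.7 and 38.1 in control (scaled cRPKM).

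SREBF2 was lowest with active photolyase, below both UVC (-0.40 ± 0.05, adjusted p = 8.73e-06) and control (-0.28 ± 0.05, adjusted p = 0.000356). Its small rise after UVC (0.12 ± 0.05, adjusted p = 0.044) was lost with no filter on low genes (0.03, adjusted p = 0.696), with DESeq2 (0.11, adjusted p = 0.062) and with relative log expression factors (0.11, adjusted p = 0.0592). It was also lost without control replicate 2 (0.11), without UVC replicate 1 (0.07) and without active photolyase replicate 1 (0.12). Inside a library, the SREBF1 to SREBF2 ratio of cRPKM was 4.31 and 4.15 with active photolyase, 3.16 and 3.25 after UVC and 3.26 and 3.45 in control. SREBF1 transcripts were therefore more abundant per length than those of SREBF2 in all 6 libraries, and most so with active photolyase.

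SCAP, the sterol sensor that escorts SREBPs, had 5.48 and 5.51 with active photolyase, 7.81 and 7.29 after UVC and 4.84 and 4.45 in control (scaled cRPKM). It was among the lowest members in level. SCAP rose 1.63-fold after UVC against control (0.70 ± 0.06, adjusted p = 1.94e-07), the opposite direction to both INSIG genes, and was lower with active photolyase than after UVC (-0.46 ± 0.06, adjusted p = 1.75e-05). Of the 5 control genes, 2 were thus higher and 2 lower after UVC, where 42.5% of all genes were higher and 43.1% lower.

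**Figure D2:**
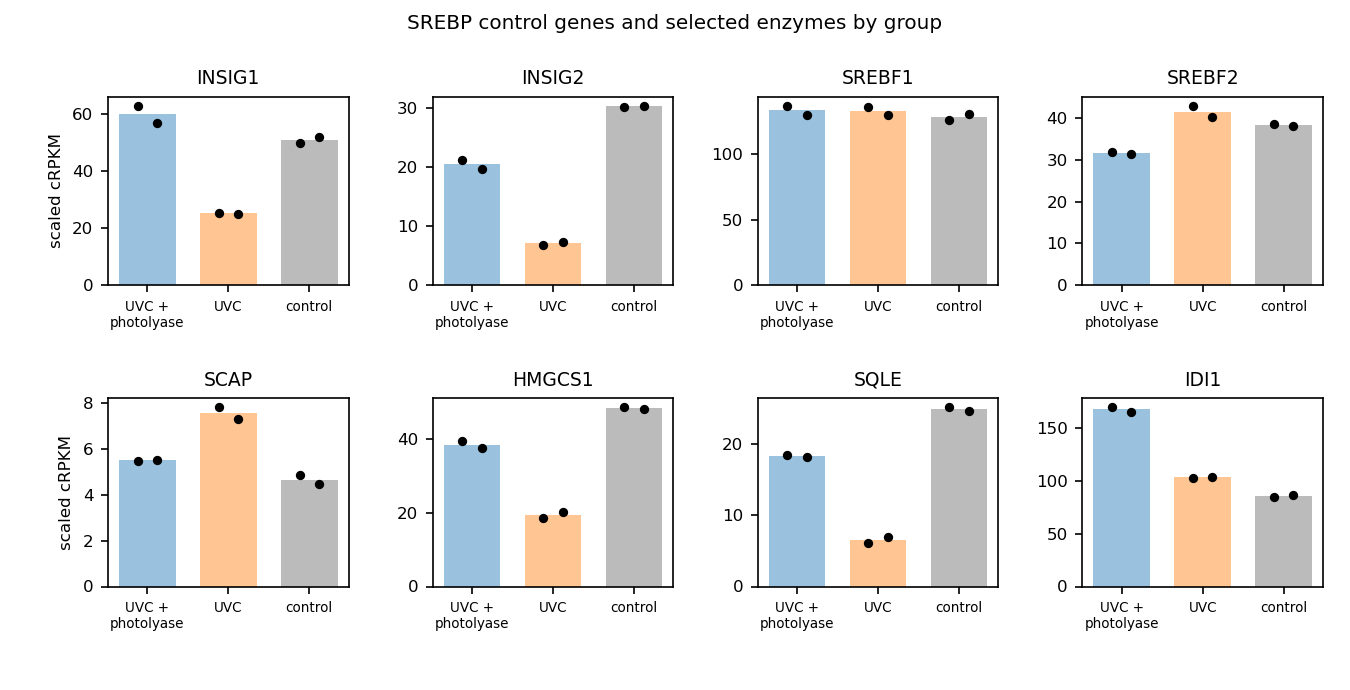
Scaled cRPKM of 5 SREBP control genes and 3 enzymes, with bars for the mean of 2 libraries and points for each library, on axes from 0. INSIG1, INSIG2, HMGCS1 and SQLE are lowest after UVC, SCAP is highest after UVC, IDI1 is highest with active photolyase, and SREBF1 overlaps between groups.

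The promoters of 6 genes are printed because these genes show the contrasting responses: INSIG1 and INSIG2 with HMGCS1 fell after UVC, IDI1 and SCD rose, and SREBF2 encodes the main regulator. Each sequence is the 250 bases before a transcription start listed by RefSeq (GRCh38.p14), 5′ to 3′ on the gene's strand, where several starts are listed the one with most matches. Capitals mark matches on either strand to the core of the sterol regulatory element (CACNCCAC), the CCAAT box bound by NF-Y, a common partner of SREBPs, or the E-box (CACGTG).
INSIG1, forward strand, chr7:155297628-155297877: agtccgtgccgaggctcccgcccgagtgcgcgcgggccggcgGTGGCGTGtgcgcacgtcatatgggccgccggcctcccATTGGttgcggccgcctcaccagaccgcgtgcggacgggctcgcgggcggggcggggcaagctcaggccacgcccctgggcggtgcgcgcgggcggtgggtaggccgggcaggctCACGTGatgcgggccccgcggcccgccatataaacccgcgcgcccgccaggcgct
INSIG2, forward strand, chr2:118088221-118088470: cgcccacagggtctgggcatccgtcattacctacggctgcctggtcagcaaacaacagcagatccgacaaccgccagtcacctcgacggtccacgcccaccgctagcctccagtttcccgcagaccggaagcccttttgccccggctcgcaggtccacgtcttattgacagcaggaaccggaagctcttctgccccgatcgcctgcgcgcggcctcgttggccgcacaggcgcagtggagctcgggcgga
HMGCS1, reverse strand, chr5:43313413-43313662: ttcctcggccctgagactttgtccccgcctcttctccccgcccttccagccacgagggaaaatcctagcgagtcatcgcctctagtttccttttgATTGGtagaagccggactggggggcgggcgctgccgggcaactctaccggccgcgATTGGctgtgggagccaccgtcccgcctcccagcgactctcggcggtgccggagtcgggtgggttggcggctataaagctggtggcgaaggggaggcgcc
IDI1, reverse strand, chr10:1048887-1049136: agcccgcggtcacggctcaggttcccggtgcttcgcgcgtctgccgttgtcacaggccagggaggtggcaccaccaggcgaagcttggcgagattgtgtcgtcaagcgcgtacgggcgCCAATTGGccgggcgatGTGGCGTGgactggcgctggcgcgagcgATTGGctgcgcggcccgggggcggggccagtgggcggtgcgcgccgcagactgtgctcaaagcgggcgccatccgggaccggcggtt
SREBF2, forward strand, chr22:41832855-41833104: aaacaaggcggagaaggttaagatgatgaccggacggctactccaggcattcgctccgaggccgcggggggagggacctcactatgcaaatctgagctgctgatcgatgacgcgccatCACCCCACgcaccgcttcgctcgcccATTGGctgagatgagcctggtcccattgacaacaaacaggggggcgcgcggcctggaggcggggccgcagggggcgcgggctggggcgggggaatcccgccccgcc
SCD, forward strand, chr10:100346983-100347232: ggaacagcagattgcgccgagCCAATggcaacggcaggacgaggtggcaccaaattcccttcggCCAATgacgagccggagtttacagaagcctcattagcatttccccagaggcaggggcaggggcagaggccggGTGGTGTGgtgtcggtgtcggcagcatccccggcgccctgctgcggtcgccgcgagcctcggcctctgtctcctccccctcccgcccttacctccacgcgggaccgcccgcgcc
In the IDI1 window a pair of CCAAT matches on opposite strands overlap.

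Of the 28 genes, 24 had a promoter entry, and ACAT2, FASN, FDFT1 and SQLE are named only. The CCAAT box was found in the 250 bases before a start of 18 of 24 members (75.0%), against 37.0% of 27305 genes. It was in 12 of 14 members that were higher after UVC, in 3 of 6 that were lower and in 2 of 3 that were not called. The sterol element core was in 6 of 24 (25.0%), against 5.89% of all genes, namely ACACA, IDI1, INSIG1, SC5D, SCD and SREBF2. The E-box was in 3 of 24 (12.5%), against 7.73%, namely INSIG1, SC5D and SCAP. No match of any of the 3 was found for CYP51A1, INSIG2, LBR, PMVK and SREBF1, of which 3 were lower after UVC, PMVK was higher and SREBF1 was not called. A match describes letters in the window and is not evidence of binding.

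**Figure D3:**
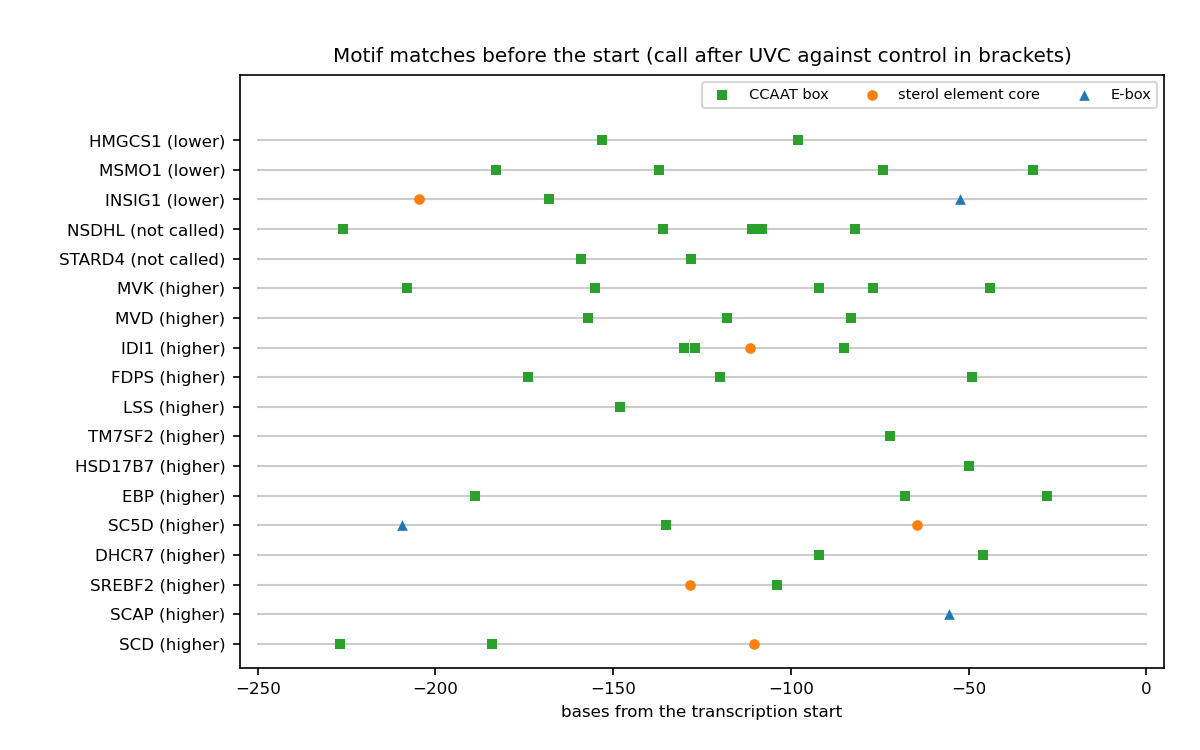
Position of motif matches in the 250 bases before the start (x axis, bases from the transcription start) for the 18 members with a match and a value, with the call after UVC against control in brackets. CCAAT matches are present in 12 of the members that were higher after UVC and in HMGCS1, MSMO1 and INSIG1 among those that were lower.

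In the mevalonate arm, 6 of 7 enzymes were higher after UVC than in control and 1 was lower. Of all genes, 42.5% were higher and 43.1% lower there. HMGCS1, the cytosolic HMG-CoA synthase that commits acetyl units to the pathway, was the exception, with 39.2 and 37.3 with active photolyase, 18.6 and 20.1 after UVC and 48.5 and 48.0 in control (scaled cRPKM). It fell 2.49-fold after UVC (-1.31 ± 0.05, adjusted p = 3.22e-11), and with active photolyase it was 1.97-fold higher than after UVC but still below control (-0.33 ± 0.05, adjusted p = 9.42e-05). ACAT2, the thiolase of the step before it, had 9.38 and 9.38 with active photolyase, 12.1 and 11.9 after UVC and 9.41 and 8.98 in control (scaled cRPKM). ACAT2 was highest after UVC (0.39 ± 0.06 against control, adjusted p = 2.4e-05). With active photolyase against control it was not called (0.03 ± 0.06), except with library totals (0.14, adjusted p = 0.0476). The HMGCS1 to ACAT2 ratio of cRPKM inside a library was 4.18 and 3.98 with active photolyase, 1.54 and 1.70 after UVC and 5.15 and 5.35 in control. These ratios do not depend on the scaling between libraries, and both UVC libraries lay below the other 4.

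MVK, the kinase that phosphorylates mevalonate, had 6.98 and 6.79 with active photolyase, 10.4 and 10.3 after UVC and 5.34 and 5.35 in control (scaled cRPKM). Its rise after UVC, 1.94-fold (0.95 ± 0.07, adjusted p = 1.63e-08), was the largest of the arm. The next enzymes followed in direction: MVD, the decarboxylase that makes isopentenyl diphosphate, had 22.6 and 21.7 with active photolyase, 29.2 and 29.1 after UVC and 18.1 and 17.3 in control (scaled cRPKM). PMVK, the second kinase, had 20.2 and 20.3 with active photolyase, 21.7 and 23.1 after UVC and 15.4 and 14.8 in control (scaled cRPKM). MVD and PMVK were higher after UVC than in control by 0.72 ± 0.05 and 0.57 ± 0.06, and both stayed above control with active photolyase (0.33 ± 0.05 and 0.42 ± 0.06). The fall of PMVK with active photolyase against UVC (-0.15 ± 0.06, adjusted p = 0.0361) was lost with DESeq2 (-0.15, adjusted p = 0.0937), with no filter (-0.11, adjusted p = 0.179), without UVC replicate 2 (-0.11) and without active photolyase replicate 1 (-0.14).

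IDI1, the isomerase that interconverts the isoprenoid building blocks, had 169.9 and 165 with active photolyase, 103 and 104 after UVC and 84.9 and 86.3 in control (scaled cRPKM). It was the single member called higher in all 3 comparisons, with its largest change, 1.96-fold, with active photolyase against control (0.97 ± 0.05, adjusted p = 3.45e-09). The step up with active photolyase over UVC was 0.70 ± 0.05 (adjusted p = 1.79e-08). FDPS, which joins the building blocks into farnesyl diphosphate, had 64.8 and 65.9 with active photolyase, 83.0 and 80.6 after UVC and 64.8 and 63.8 in control (scaled cRPKM). FDPS was higher after UVC (0.35 ± 0.05, adjusted p = 1.02e-05), and its level with active photolyase was not called against control (0.02 ± 0.05, adjusted p = 0.671), though it was with library totals (0.13, adjusted p = 0.0244).

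Between farnesyl diphosphate and lanosterol, 2 of 3 enzymes were higher after UVC and 1 was lower. Among all genes, 42.5% were higher and 43.1% lower. SQLE, the squalene epoxidase and a rate-limiting step of the pathway, had 18.3 and 18.1 with active photolyase, 6.04 and 6.96 after UVC and 25.1 and 24.6 in control (scaled cRPKM). It fell 3.82-fold after UVC (-1.93 ± 0.07, adjusted p = 4.69e-12), the largest fall among the enzymes, and was 2.81-fold higher with active photolyase than after UVC (1.49 ± 0.07, adjusted p = 1.16e-10). SQLE remained below control with active photolyase (-0.44 ± 0.06, adjusted p = 3.09e-05). LSS, the cyclase that closes the rings to lanosterol in the next step, had 9.80 and 9.99 with active photolyase, 14.2 and 12.8 after UVC and 9.52 and 9.80 in control (scaled cRPKM). LSS moved the other way, higher after UVC by 0.49 ± 0.06 (adjusted p = 6.07e-06), and was not called with active photolyase against control. Inside a library, the SQLE to LSS ratio of cRPKM was 1.87 and 1.82 with active photolyase, 0.427 and 0.542 after UVC and 2.64 and 2.51 in control. SQLE was thus the more abundant of the pair per length in 4 libraries and the less abundant in both UVC libraries.

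FDFT1, the squalene synthase at the branch point to sterols, had 49.4 and 49.7 with active photolyase, 65.3 and 62.9 after UVC and 58.6 and 53.4 in control (scaled cRPKM). Its rise after UVC was small (0.20 ± 0.05, adjusted p = 0.00381), was 0.13 without control replicate 2 and was lost with no filter on low genes (0.10, adjusted p = 0.126). FDFT1 was lower with active photolyase than after UVC (-0.37 ± 0.05, adjusted p = 2.63e-05). The call of lower with active photolyase against control (-0.18 ± 0.05, adjusted p = 0.0119) was lost with library totals (-0.065, adjusted p = 0.309), without control replicate 1 (-0.11), and without either library of active photolyase (-0.17 and -0.18).

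Of the 9 enzymes from lanosterol to cholesterol, 5 were higher after UVC, 3 were lower and 1 was not called. The shares of all genes were 42.5% higher and 43.1% lower. CYP51A1, the demethylase that acts first on lanosterol, had 20.0 and 20.4 with active photolyase, 14.7 and 15.7 after UVC and 24.3 and 25.0 in control (scaled cRPKM). It was lower after UVC (-0.70 ± 0.05, adjusted p = 2.32e-08) and in between with active photolyase. Its rise with active photolyase against UVC (0.41 ± 0.05, adjusted p = 8.24e-06) was not called with library totals (0.11, adjusted p = 0.0761).

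The next reduction can be done by either of a pair of enzymes, and they moved in opposite directions. LBR, which is also the lamin B receptor of the nuclear envelope, had 6.31 and 6.18 with active photolyase, 4.98 and 5.08 after UVC and 9.26 and 9.32 in control (scaled cRPKM). TM7SF2, the other sterol reductase, had 10.9 and 10.3 with active photolyase, 13.2 and 12.3 after UVC and 8.04 and 8.65 in control (scaled cRPKM). After UVC against control, LBR fell (-0.88 ± 0.06, adjusted p = 4.93e-09) and TM7SF2 rose (0.61 ± 0.07, adjusted p = 2.65e-06), and the order of the pair was thus LBR above TM7SF2 in the control libraries and the reverse in all 4 irradiated libraries. The rise of LBR with active photolyase against UVC (0.31 ± 0.06) was 0.00 with library totals (adjusted p = 0.958), and the fall of TM7SF2 there (-0.26 ± 0.07) was lost without UVC replicate 1 (-0.21, adjusted p = 0.0541).

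MSMO1, the methylsterol oxidase that begins removal of the remaining methyl groups, had 14.6 and 13.9 with active photolyase, 13.6 and 13.3 after UVC and 16.6 and 15.2 in control (scaled cRPKM). It was called lower after UVC (-0.24 ± 0.06, adjusted p = 0.00252), but the direction reversed with library totals (0.18, adjusted p = 0.0158) and the call was lost with the filter at 5 cRPKM (-0.12, adjusted p = 0.071). Its call of lower with active photolyase against control (-0.16 ± 0.06, adjusted p = 0.0373) was lost with library totals (-0.049, adjusted p = 0.504), without control replicate 1 (-0.10), without either UVC library (-0.16 in both) and without either active photolyase library (-0.20 and -0.12). NSDHL, the dehydrogenase of this step, had 14.9 and 15.2 with active photolyase, 18.0 and 18.2 after UVC and 17.7 and 16.2 in control (scaled cRPKM). NSDHL was not called after UVC against control (0.10 ± 0.06, adjusted p = 0.15), though it was called higher with library totals (0.51, adjusted p = 1.43e-06), with the filter at 5 cRPKM (0.22, adjusted p = 0.00349) and without control replicate 1 (0.16, adjusted p = 0.0277). It was lower with active photolyase than after UVC (-0.27 ± 0.06, adjusted p = 0.00107). Its call of lower with active photolyase against control (-0.17 ± 0.06) was lost with library totals (-0.063, adjusted p = 0.381), without control replicate 1 (-0.11) and without either active photolyase library (-0.16 and -0.19).

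HSD17B7, the ketoreductase, was the lowest member in level, with 3.10 and 3.06 with active photolyase, 4.07 and 4.55 after UVC and 1.91 and 2.24 in control (scaled cRPKM) from 24 to 63 reads per library over an effective length of 203 bases. Its sequence is close to that of a pseudogene, which may share its reads, so its value is uncertain. HSD17B7 was higher after UVC (1.05 ± 0.24, adjusted p = 0.00112). Its other comparisons were not called (-0.48 ± 0.22 for active photolyase against UVC and 0.57 ± 0.26 for active photolyase against control), but with library totals both were, at -0.79 (adjusted p = 0.00427) and 0.68 (adjusted p = 0.0335).

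Of the last 3 enzymes, SC5D, a desaturase, had 27.1 and 27.4 with active photolyase, 39.2 and 39.7 after UVC and 24.5 and 23.3 in control (scaled cRPKM), and it rose 1.65-fold after UVC (0.73 ± 0.05, adjusted p = 7.38e-09). EBP, the sterol isomerase, had 40.4 and 40.6 with active photolyase, 39.2 and 38.9 after UVC and 29.8 and 30.1 in control (scaled cRPKM). EBP was above control in both irradiated groups (0.38 ± 0.05 after UVC and 0.43 ± 0.05 with active photolyase) and was not called between them (0.05 ± 0.05, adjusted p = 0.343). With library totals EBP was instead lower with active photolyase than after UVC (-0.26, adjusted p = 0.000194). DHCR7, the reductase that turns the vitamin D precursor of skin into cholesterol, had 26.8 and 29.6 with active photolyase, 41.0 and 37.7 after UVC and 28.9 and 28.8 in control (scaled cRPKM). DHCR7 was higher after UVC (0.45 ± 0.06, adjusted p = 7.15e-06), lower with active photolyase than after UVC (-0.48 ± 0.06, adjusted p = 5.11e-06), and not called with active photolyase against control (-0.03 ± 0.06).

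The fatty acid enzymes were higher after UVC. SCD, the desaturase that makes oleate and the highest member in level in every group, had 382 and 359 with active photolyase, 559 and 529 after UVC and 344 and 326 in control (scaled cRPKM). It rose 1.63-fold after UVC (0.70 ± 0.06, adjusted p = 6.89e-08) and was lower with active photolyase than after UVC (-0.55 ± 0.06, adjusted p = 1.23e-06). The remaining difference between active photolyase and control (0.15 ± 0.06, adjusted p = 0.0399) was lost with no filter (0.10, adjusted p = 0.177), with relative log expression factors (0.15, adjusted p = 0.0516) and in 4 of the 6 runs that left out 1 library, at 0.11 without control replicate 2, 0.10 without active photolyase replicate 1, and 0.15 without either UVC library. FASN, the fatty acid synthase, had 35.4 and 37.0 with active photolyase, 55.0 and 47.6 after UVC and 33.8 and 39.1 in control (scaled cRPKM). FASN was higher after UVC (0.49 ± 0.08, adjusted p = 3.7e-05), and its level with active photolyase overlapped that of control (-0.01 ± 0.08, adjusted p = 0.916).

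STARD4, a soluble carrier of sterols between membranes, had 8.22 and 8.10 with active photolyase, 7.45 and 7.97 after UVC and 7.29 and 8.42 in control (scaled cRPKM). It was not called in any comparison (-0.02 ± 0.07 for UVC against control, 0.08 ± 0.07 for active photolyase against UVC and 0.06 ± 0.07 for active photolyase against control). With library totals it was called in all 3, at 0.39, -0.23 and 0.17, and without control replicate 2 it was called with active photolyase against control (0.16, adjusted p = 0.0434).

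**Figure D4:**
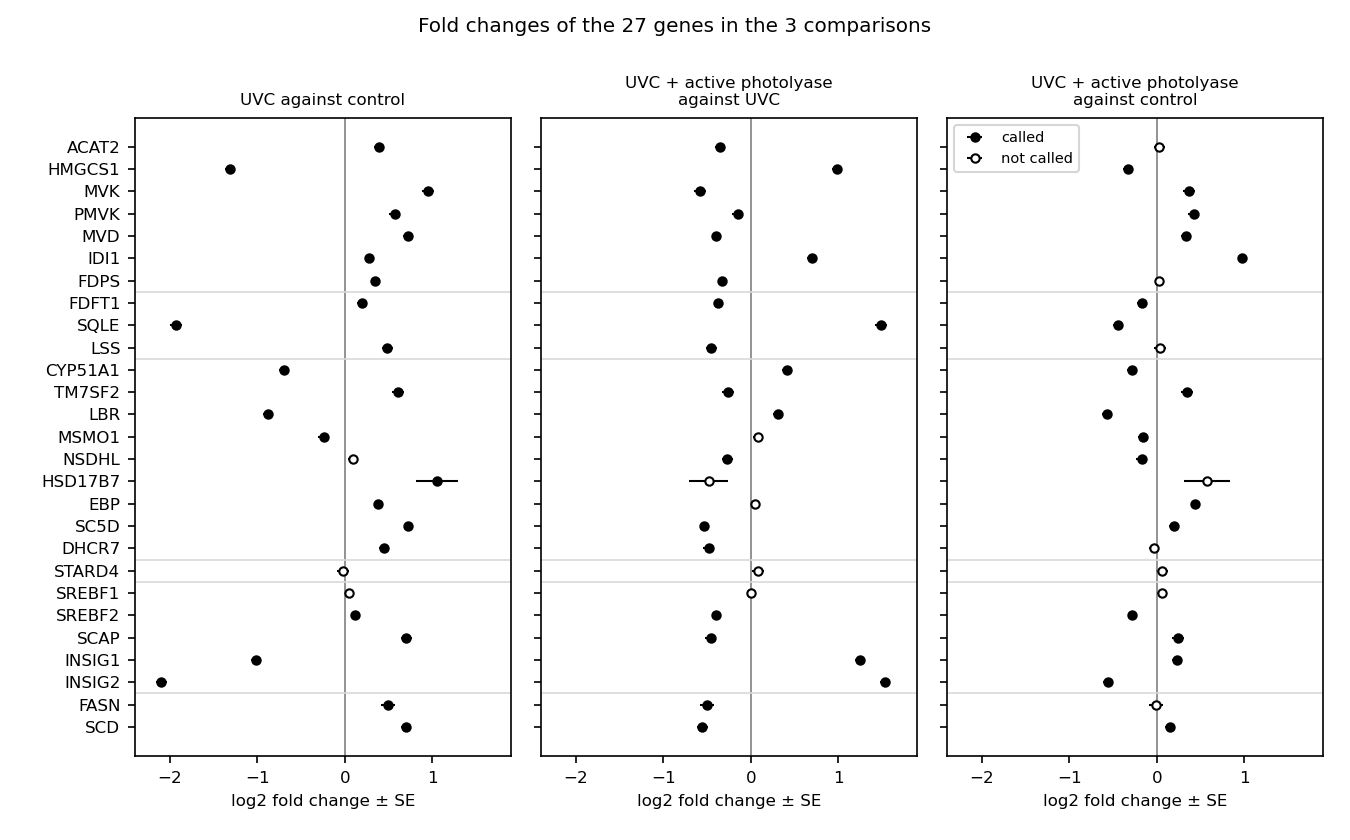
Log2 fold change ± SE of the 27 genes in the 3 comparisons, in the order of their roles, with filled points for called genes and open points for those not called. HMGCS1, SQLE, INSIG1 and INSIG2 lie furthest to the left for UVC against control and to the right for active photolyase against UVC.

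Set side by side, the calls of the members fell into 11 patterns over the 3 comparisons. The share of all genes in each pattern was not counted, so no pattern is given as particular to the members. The most frequent, in 7 genes (MVK, PMVK, MVD, TM7SF2, SC5D, SCAP and SCD), was higher after UVC, lower with active photolyase than after UVC, and still higher than control. In 5 genes (ACAT2, FDPS, LSS, DHCR7 and FASN) the first pair of calls was the same and active photolyase was not called against control. In another 5 (HMGCS1, SQLE, CYP51A1, LBR and INSIG2) the level was lower after UVC, higher with active photolyase than after UVC, and still lower than control. Because these comparisons share libraries, opposite signs in the first pair were not tested as a recovery.

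Genes that govern SREBP release and the turnover of sterol proteins in the endoplasmic reticulum, 20 genes listed beside the members, were mostly lower after UVC: 14 were lower and 4 higher (median log2 fold change -0.72, against 0.00 over all genes, of which 43.1% were lower and 42.5% higher). With library totals, 12 were lower and 7 higher (median -0.30, against 0.42 over all genes). SEC24A, a subunit of the vesicle coat that carries SCAP and SREBP out of the endoplasmic reticulum, had 6.97 and 7.48 with active photolyase, 2.31 and 2.72 after UVC and 10.2 and 11.4 in control (scaled cRPKM). SEC24A fell by 2.10 ± 0.08 on the log2 scale after UVC (adjusted p = 1.59e-11 by edgeR), and PAQR3, a Golgi tether of SCAP, was also lower (-1.74 ± 0.06). In contrast, MBTPS1, the protease that makes the first cut in SREBPs, was higher after UVC (0.47 ± 0.05), as was the coat subunit SEC23A (0.16 ± 0.05). MBTPS2, the protease that makes the second cut, was lower (-0.65 ± 0.06).

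With active photolyase against UVC, 12 of the 20 were higher and 5 lower (median 0.41). Over all genes, 39.2% were higher and 39.9% lower (median -0.04). Among those higher were RNF145, a sterol-linked ubiquitin ligase, at 1.59 ± 0.07 and PAQR3 at 1.45 ± 0.06. SEC23A (-0.58 ± 0.05) and MBTPS1 (-0.58 ± 0.05) were lower there. With library totals the split was 9 higher and 8 lower (median 0.10, against -0.34 over all genes). Against control, active photolyase left 12 lower and 0 higher (median -0.26). Over all genes, 32.9% were lower and 33.0% higher (median 0.01). Those lower included FBXW7, which marks nuclear SREBPs for degradation (-0.96 ± 0.09), and NPLOC4, a cofactor of protein extraction from the endoplasmic reticulum (-0.62 ± 0.05). With library totals, 10 were lower and 3 higher (median -0.15, against 0.12 over all genes).

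Genes of sterol uptake, movement and storage included the widest change among the pathway lists. NPC1, which moves cholesterol out of lysosomes, had 68.0 and 63.1 with active photolyase, 10.8 and 10.7 after UVC and 85.5 and 86.2 in control (scaled cRPKM). NPC1 fell by 2.99 ± 0.06 on the log2 scale after UVC against control (adjusted p = 2.6e-14 by edgeR's quasi-likelihood test) and was higher with active photolyase than after UVC by 2.60 ± 0.06. NPC2, its soluble partner, rose after UVC (0.59 ± 0.06), while OSBPL8, an oxysterol-binding protein, fell (-1.53 ± 0.06). SOAT1, which makes cholesterol esters, was higher with active photolyase than after UVC (1.29 ± 0.06). Of the 12 genes of this list that were tested (of 15 listed, with GRAMD1A not matched), 6 were lower and 3 higher after UVC. Over all genes, 43.1% were lower and 42.5% higher. The list's median was -0.31, against 0.00 over all genes. With library totals, 6 were lower and 6 higher, and the median was 0.11, against 0.42 over all genes. The counts thus changed with the scaling, while the list's median lay below that of all genes under both.

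Liver X receptor (LXR) and sterol export genes, of which 11 of 12 were tested, were 8 higher and 2 lower after UVC (median 0.69), 3 higher and 7 lower with active photolyase against UVC (median -0.42), and 6 higher and 2 lower with active photolyase against control (median 0.27). Over all genes, 42.5% were higher and 43.1% lower, 39.2% and 39.9%, and 33.0% and 32.9% in those comparisons, with medians of 0.00, -0.04 and 0.01. With library totals the list medians were 1.11, -0.73 and 0.38, against 0.42, -0.34 and 0.12 over all genes. ABCA2, a lipid transporter, rose by 1.04 ± 0.06 after UVC, and RXRB, a partner of LXRs, by 0.75 ± 0.06. NCOA5, a nuclear receptor coactivator, fell by 2.20 ± 0.06 and was higher with active photolyase than after UVC by 1.92 ± 0.06. ABCG1, a sterol exporter and LXR target, had 9.97 and 9.57 with active photolyase, 5.22 and 4.77 after UVC and 5.90 and 6.07 in control (scaled cRPKM). ABCG1 was therefore highest with active photolyase (0.97 ± 0.07 against UVC and 0.71 ± 0.07 against control), and its small fall after UVC (-0.26 ± 0.07) reversed with library totals (0.16). MYLIP, an LXR-induced ubiquitin ligase for lipoprotein receptors, was likewise higher with active photolyase than in control (1.14 ± 0.08).

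Other SREBP targets of lipid synthesis, 15 of 16 tested, were split after UVC, 7 higher and 7 lower (median 0.06). Over all genes, 42.5% were higher and 43.1% lower (median 0.00). With library totals these targets were 9 higher and 5 lower (median 0.48, against 0.42 over all genes). LPIN1, a phosphatidate phosphatase, had 13.8 and 12.4 with active photolyase, 5.68 and 5.53 after UVC and 34.4 and 35.7 in control (scaled cRPKM). LPIN1 fell by 2.64 ± 0.06 after UVC and stayed below control with active photolyase (-1.42 ± 0.06). ACACB, the mitochondrial acetyl-CoA carboxylase, rose by 2.13 ± 0.10 but from a low level, with 1.14 and 1.12 with active photolyase, 1.73 and 1.45 after UVC and 0.361 and 0.373 in control (scaled cRPKM). PNPLA3, a lipid droplet protein, rose by 2.17 ± 0.19, also from a low level. It had 1.32 and 0.993 with active photolyase, 2.07 and 1.65 after UVC and 0.361 and 0.464 in control (scaled cRPKM), the last from 59 and 74 reads. ACACB and PNPLA3 passed the filter on low levels only through irradiated libraries, so the filter itself favoured a rise over control. Both are among the 7 counted as higher. MID1IP1, an activator of acetyl-CoA carboxylase, fell after UVC (-0.73 ± 0.05).

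The branches that use mevalonate products for prenylation, dolichol and ubiquinone, 12 of 13 tested with FNTB not matched, were 7 lower and 4 higher after UVC. Over all genes, 43.1% were lower and 42.5% higher. The median of the branches was -0.32, against 0.00 over all genes. With library totals the branches were 3 lower and 6 higher (median 0.09, against 0.42 over all genes). NUS1, a subunit of the dolichol-making enzyme, fell by 1.18 ± 0.06 and PGGT1B, a prenyltransferase subunit, was also lower (-0.91 ± 0.07). ICMT, which methylates prenylated proteins, rose by 0.47 ± 0.05. Among 4 vitamin D genes tested of 5, 2 were higher and 2 lower after UVC, and with library totals 3 were higher and 1 lower, as VDR, the vitamin D receptor, turned from -0.19 to 0.23. CYP27B1, which makes active vitamin D, had 8.40 and 8.45 with active photolyase, 7.58 and 7.57 after UVC and 13.8 and 14.6 in control (scaled cRPKM) and fell by 0.90 ± 0.06, and CYP24A1, which degrades it, rose by 0.36 ± 0.06.

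UVC lesions are known to stall RNA polymerase II, and fold changes were also set against gene span, the length from the first to the last annotated base (GENCODE 29, GRCh38). The members are short to medium, from 4.54 kb (TM7SF2) to 74.2 kb (SREBF2), and 20 of 27 lie between 10 and 30 kb. Over all genes the median log2 fold change after UVC against control was 0.38 under 10 kb, 0.01 from 10 to 30 kb, -0.18 from 30 to 100 kb and -0.23 from 100 kb. Among the 20 members from 10 to 30 kb, 11 were higher, 7 were lower and the median was 0.31. Among the 5 from 30 to 100 kb (FDFT1, LSS, NSDHL, SCAP and SREBF2), 4 were higher and 0 were lower, with a median of 0.20. All 7 members lower after UVC thus fell in the class of 10 to 30 kb, together with most members that were higher.

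Across the 27 members, which share libraries and lie in a narrow range of spans, Spearman's rho between span and fold change was -0.16 for UVC against control, against -0.24 over 11728 genes. It was -0.21 against 0.02 for active photolyase against UVC, and -0.54 against -0.44 for active photolyase against control. The 2 members under 10 kb (EBP and TM7SF2) were higher after UVC, where the median of all genes was 0.38. As further chosen examples, INSIG1 at 12.5 kb fell while SCAP at 63.4 kb rose. SQLE at 23.8 kb and MVK at 24.9 kb moved in opposite directions. The part of gene span in the fold changes of the members was not tested.

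**Figure D5:**
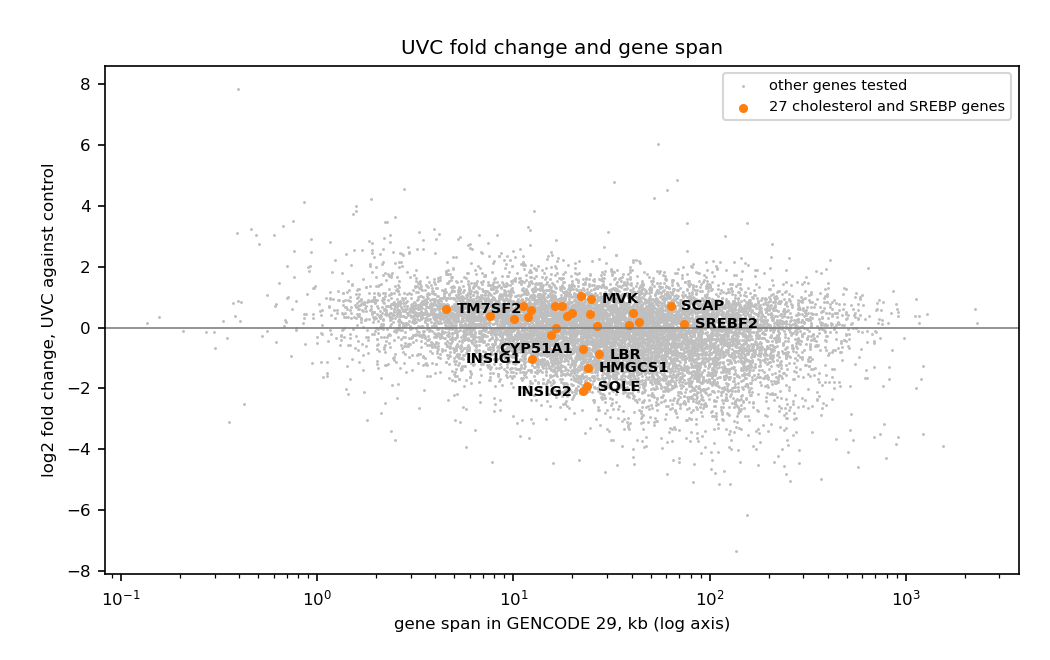
Log2 fold change for UVC against control (y axis) and gene span in kb (x axis, log scale) for the 27 members (large points) and all other tested genes with a span (small points). Members between 10 and 30 kb range from INSIG2 at -2.10 to HSD17B7 at 1.05.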

How the data were processed

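RNA of HaCaT cells was made into TruSeq libraries, per the labels' protocols, and reads were aligned with Bowtie to hg19, per the submitters' processing notes. No source used here gives the aligner's version, how reads were counted, whether strand was used, or which annotation, so reads of overlapping, antisense or near-identical genes may be shared between them. Each deposited table pairs a corrected RPKM (cRPKM) with an unnormalized read count for every gene. The tables list 19847 genes, of which 354 have no values. The deposited RPKM equals the count over an effective gene length and the library total, and for the 6664 genes above 5 cRPKM that length was stable across libraries to within 0.183%.

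The test on the deposited counts was the two-sided quasi-likelihood F test of edgeR 4.0.16 (R 4.3.3) in 1 fit of 3 group means to all 6 libraries, with 3 residual degrees of freedom. Genes at 1 cRPKM or more in at least 2 libraries were kept (11926). Factors from the trimmed mean of M values (TMM) were 0.954 and 0.957 with active photolyase, 1.18 and 1.18 after UVC and 0.886 and 0.884 in control. The common biological coefficient of variation was 4.62%. SE is the log2 fold change divided by the square root of F. The test was checked on simulated counts. Alternatives were library totals, relative log expression factors, DESeq2 1.42.0, limma 3.58.1 on log2(cRPKM + 1) and log2(cRPKM + 0.1), no filter, a filter at 5 cRPKM, fits of 2 groups, a replicate block and each library left out. The cell type marker lists are checks of the label. Members, pathway lists and tests were chosen with earlier results of these data known. Of each pathway list, up to 2 called genes per direction and comparison were eligible to be named, those of smallest p. MBTPS2 was named in addition, beside MBTPS1. Identifiers were matched to symbols for 18913 of 19493 genes. Promoter sequences are from RefSeq (GRCh38.p14), gene spans from GENCODE 29 (GRCh38), and no coordinates were carried over from hg19.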

Additional observations from a re-analysis of the deposited data

How the results depend on the processing

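Of 81 member results (27 genes in 3 comparisons), 53 kept their direction and their side of the threshold in every one of the 15 alternatives that gave them a value. HSD17B7 was below the filter at 5 cRPKM, so its 3 results, of which UVC against control is among the 53, have no value there. The members higher and lower were 15 to 21 and 6 to 7 for UVC against control, 5 to 7 and 14 to 20 for active photolyase against UVC, and 8 to 15 and 6 to 9 for active photolyase against control. With library totals, limma + 1 and limma + 0.1, which all leave out TMM, log2 values that turned sign were these. For UVC against control, MSMO1 gave 0.18, 0.16 and 0.17, and STARD4 0.39, 0.35 and 0.39. For active photolyase against UVC, MSMO1 gave -0.22, -0.21 and -0.22, STARD4 -0.23, -0.20 and -0.22, EBP -0.26, -0.25 and -0.25, and SREBF1 -0.30, -0.30 and -0.30. For active photolyase against control, FASN gave 0.10, 0.10 and 0.10, and DHCR7 0.078, 0.073 and 0.075. With the filter at 5 cRPKM, turns were MSMO1 -0.014, STARD4 -0.015, EBP -0.046 and SREBF1 -0.092 for active photolyase against UVC, STARD4 0.094 for UVC against control, and FASN 0.012 for active photolyase against control. Without a filter they were SREBF1 -0.040 for UVC against control, and ACAT2 -0.018, FDPS -0.024 and LSS -0.012 for active photolyase against control. STARD4 was 0.016 for UVC against control when fitted on those 2 groups only. Leaving out 1 library turned values that were not called with all 6 libraries: STARD4 ran from -0.12 to 0.083 for UVC against control, SREBF1 from -0.035 to 0.035 for active photolyase against UVC, and for active photolyase against control STARD4 from -0.043 to 0.16, ACAT2 from -0.0027 to 0.063, DHCR7 from -0.101 to 0.036 and FASN from -0.11 to 0.099. The cause of these turns was not tested. In a fit with a replicate block, members were 17 higher and 7 lower, 7 and 15, and 10 and 9, all 81 results kept their side of the threshold, and all genes called were 10238, 9480 and 7937. Whether the replicate numbers pair the libraries is not stated. Replicate differences correlated at -0.029 (UVC and control), -0.047 (active photolyase and control) and 0.121 (active photolyase and UVC). These values cannot show whether libraries of the same number were paired. With 2 libraries a group, a small change near the threshold can rest on 1 library.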
